A study of Homo sapiens with 2 samples.

Results

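Eph receptors are receptor tyrosine kinases that bind ephrins, ligands anchored in the membrane of neighbouring cells. Contact between the cells sends a forward signal through the receptor kinase and a reverse signal into the cell that carries the ephrin, and both act on the cytoskeleton and adhesion. Ephrin-A proteins are held by a lipid anchor and are bound mainly by EphA receptors, whereas ephrin-B proteins span the membrane and are bound mainly by EphB receptors. EPHA4 binds ligands of both classes. In epithelia these contacts help to keep cell populations apart, and in vessels EPHB4 and EFNB2 mark venous and arterial endothelium.

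The genes described are 6 Eph receptors (EPHA2, EPHA4, EPHB1, EPHB2, EPHB3 and EPHB4) and 4 ephrins (EFNA1, EFNA5, EFNB1 and EFNB2). They were taken by gene symbol from expression tables with 23375 usable gene rows, and all 10 had a row. RNA was sequenced from 786-O cells with a SETD2 knockout made by a zinc finger nuclease, and from 786-O cells with wild-type SETD2, with 1 library of each. The established human line 786-O comes from a clear cell renal carcinoma and lacks functional VHL, and SETD2 is the methyltransferase that trimethylates H3K36 along transcribed genes. Both lines were grown in RPMI1640 medium with serum. The sources used here do not say whether the knockout line derives from 1 clone.

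The knockout library held 50670012 fragments in genes and the wild-type library 62304084. SETD2 itself was counted in 1404 knockout and 4908 wild-type fragments, a ratio of 0.334 with an interval of 0.314 to 0.354. Ratios are of the knockout library over the wild-type library after scaling with TMM, a trimmed mean of log ratios over all genes, intervals are exact 95% counting intervals, and CPM is the fragment count relative to the scaled library size. With 1 library per line, no difference below has a replicate check, no p-value was computed, and a ratio is a statement about these libraries, not the genotypes. Higher and lower are used of genes whose whole interval lay beyond 1.5-fold, and such genes are called counted. The kidney lineage factor PAX8 was at 168 CPM in the knockout and 251 CPM in the wild-type library. Of 6 leukocyte markers, 4 were under 1 CPM in both libraries, and the list summed to 40.8 CPM in the knockout and 39.4 CPM in the wild-type library. Nearly all of that sum was CD68, a lysosomal protein on that list, at 39.6 CPM in the knockout and 38.6 CPM in the wild-type library. The defining leukocyte gene PTPRC had 1 knockout fragment and 2 wild-type fragments, and CD3E had 0 in both. All 5 endothelial markers listed were under 1 CPM in both. Of 5 fibroblast markers 3 were under 1 CPM in both, and the list summed to 17.6 CPM in the knockout and 12.2 CPM in the wild-type library. In bulk RNA, fewer cells of a type and less RNA per cell cannot be told apart.

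Of the 10 genes, EPHB1, EPHB4 and EFNB1 were higher in the knockout library and EFNA1 was lower. The other 6 were not counted in either direction. The 250 bases before the RefSeq start of the counted genes are shown because they adjoin the annotated starts of the genes that differed. Whether these bases regulate the genes in 786-O cells was not measured. The sequences are given 5′ to 3′ on the strand of the gene in GRCh38.p14, a later build than the hg19 of the tables. Capitals mark GC boxes (GGGCGG on either strand), the core of the site bound by SP1 and related factors. The EPHB1 window is chr3:134795010-134795259 on the plus strand and the EPHB4 window chr7:100827524-100827773 on the minus strand. The EFNB1 window is chrX:68828771-68829020 and the EFNA1 window chr1:155127626-155127875, both on the plus strand.
EPHB1: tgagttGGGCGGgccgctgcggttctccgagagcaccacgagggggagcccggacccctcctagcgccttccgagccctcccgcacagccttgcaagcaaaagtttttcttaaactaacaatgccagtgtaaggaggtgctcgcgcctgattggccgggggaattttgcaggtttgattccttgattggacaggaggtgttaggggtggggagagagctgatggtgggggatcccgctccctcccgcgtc
EPHB4: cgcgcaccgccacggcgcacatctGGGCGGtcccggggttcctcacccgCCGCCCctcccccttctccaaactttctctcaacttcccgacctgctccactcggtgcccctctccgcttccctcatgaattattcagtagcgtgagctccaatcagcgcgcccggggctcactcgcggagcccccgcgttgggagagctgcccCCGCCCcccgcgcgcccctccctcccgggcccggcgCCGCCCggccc
EFNB1: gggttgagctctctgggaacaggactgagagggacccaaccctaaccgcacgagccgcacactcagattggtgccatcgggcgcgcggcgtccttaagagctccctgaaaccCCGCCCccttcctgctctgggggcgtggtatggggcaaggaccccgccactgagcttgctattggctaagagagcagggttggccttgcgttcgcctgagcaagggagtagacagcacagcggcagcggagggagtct
EFNA1: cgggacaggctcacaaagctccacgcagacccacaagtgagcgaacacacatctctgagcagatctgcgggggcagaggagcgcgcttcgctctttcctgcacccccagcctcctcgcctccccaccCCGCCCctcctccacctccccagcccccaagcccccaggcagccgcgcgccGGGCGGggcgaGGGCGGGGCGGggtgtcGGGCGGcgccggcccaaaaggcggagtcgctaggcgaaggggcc

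The EPHB1 and EFNB1 windows each hold 1 GC box, the EPHB4 window holds 4 and the EFNA1 window 5, of which 2 overlap by a base. Thus the gene that was lower and the genes that were higher all carry the motif. RefSeq gave a window for all 10 genes, with 2 starts for each of EPHA4 and EPHB2, or 12 windows in all. The EPHB2 windows start a base apart and are in effect 1 sequence counted 2 times. A GC box was present in 12 of the 12, against 42.6% of all 35114 windows of the same length. The motif is made of G and C only. An EPHA4 window was at 43.2% GC, and the others ran from 60.8% (EPHB1) to 84.8% (EPHB2). The share among windows of like GC content was not measured, so the motif is not shown to be particular to these genes. The windows held 9 to 42 CpG dinucleotides, beside a median of 11 (quartiles 3 and 23) over all windows. The AP-1 motif TGANTCA, the ETS motif CCGGAA and the E-box CACGTG were in 0 of the 12 windows, and were found on either strand in 6.57%, 14.5% and 6.35% of all windows. NACGTG, the core of the hypoxia response element, which overlaps the E-box, was in 1 window (EPHA4) and in 18.5% of all. TATAAA was in 1 window (EFNB2) and in 10.7% of all. These matches describe letters only, and the RefSeq start need not be the start used in these cells.

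Among the receptors, EPHA2 was by far the most abundant in both libraries. EPHA2 (hg19 chromosome 1, 16450832 to 16482582), a receptor of ephrin-A1 that is abundant in many carcinomas, was counted in 14933 knockout and 21083 wild-type fragments. Its RPKM, the authors' read count relative to gene length and library total, was 54.1 in the knockout and 62.0 in the wild-type library. The ratio of 0.826 (interval 0.809 to 0.844) lay below 1 beyond counting error but within 1.5-fold, so EPHA2 was not counted. Its level was 5.80 times that of the next gene of the 10 by RPKM in the knockout library and 6.46 times in the wild-type library. EPHA4 (chromosome 2, 222282747 to 222437010) had 718 knockout and 802 wild-type fragments, or 1.63 RPKM in the knockout and 1.47 RPKM in the wild-type library. Its ratio of 1.04 had an interval of 0.943 to 1.16, which includes 1, so no difference was detectable at this depth.

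EPHB1 had the widest difference among the 9 genes with at least 50 reads. EPHB1 (chromosome 3, 134514099 to 134979307), an EphB receptor studied mainly in neurons, was counted in 916 knockout fragments, or 17.6 CPM, and in 217 wild-type fragments, or 3.58 CPM. It was 4.92-fold higher in the knockout library, with an interval of 4.24 to 5.74. Its RPKM of 2.82 in the knockout and 0.541 in the wild-type library placed it above EPHA4 in the knockout library and below EPHA4 in the wild-type library, and the intervals of these levels did not overlap in either library. Of all 16894 genes tested, 95.1% had a lower ratio.

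EPHB4 (chromosome 7, 100400187 to 100425143), the receptor of ephrin-B2 in venous endothelium, was scarce but also higher. It was counted in 158 knockout fragments (3.04 CPM) and 77 wild-type fragments (1.27 CPM), a 2.39-fold higher level with an interval of 1.81 to 3.19. EPHB2 (chromosome 1, 23037331 to 23241823), the most abundant EphB receptor, had 3160 knockout and 2936 wild-type fragments, or 9.33 RPKM in the knockout and 7.03 RPKM in the wild-type library. Its ratio was 1.26 (interval 1.19 to 1.32), above 1 beyond counting error and within 1.5-fold. EPHB3 (chromosome 3, 184279587 to 184300196), known from the sorting of intestinal epithelial cells, had 7 knockout fragments and 1 wild-type fragment. The interval of its ratio ran from 1.05 to 368, so its size could not be fixed at this depth. EPHB1, EPHB2 and EPHB4 thus had ratios above 1, with EPHB1 and EPHB4 counted as higher and EPHB2 not. The EPHB3 ratio also lay above 1 and was not counted. EPHB3 passed the read minimum for testing only through the knockout library, so its direction was fixed by that rule.

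**Figure D1:**
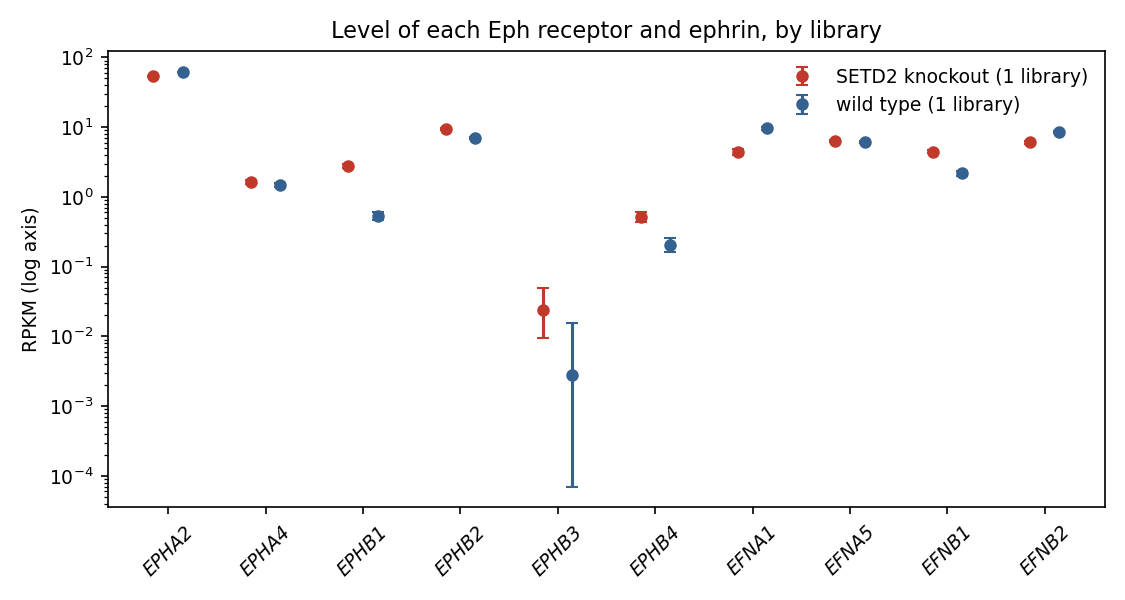
RPKM (log axis) of the 10 genes in the SETD2 knockout library (red) and the wild-type library (blue), 1 point per library; bars are exact 95% counting intervals. EPHA2 is highest in both libraries at 54.1 RPKM (knockout) and 62.0 RPKM (wild type), EPHB1 and EFNB1 are higher and EFNA1 is lower in the knockout library, and EPHB3 rests on 7 knockout fragments and 1 wild-type fragment.

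Among the ephrins, EFNB1 was higher and EFNA1 lower. EFNA1 (chromosome 1, 155100349 to 155107386), the lipid-anchored ligand of EPHA2, was counted in 484 knockout fragments, or 9.30 CPM, and in 1289 wild-type fragments, or 21.2 CPM. Its ratio of 0.438 had an interval of 0.394 to 0.487, so under TMM it was less abundant by more than 2-fold in the knockout library. The log2 interval was -1.269 to -0.963 with total count scaling and -1.271 to -0.966 with upper quartile scaling. Both of these cross 2-fold. Only 5.55% of all genes tested had a lower ratio. EFNA5 (chromosome 5, 106712590 to 107006596), an ephrin-A known from axon mapping, had 2334 knockout and 2775 wild-type fragments, or 44.9 CPM in the knockout and 45.7 CPM in the wild-type library. Its ratio of 0.981 (interval 0.928 to 1.04) includes 1, and its sign turned with the scaling, between log2 ratios of -0.04 and 0.05.

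EFNB1 (chromosome X, 68048840 to 68062006), a transmembrane ligand of EphB receptors, had 1036 knockout fragments, or 19.9 CPM, and 622 wild-type fragments, or 10.3 CPM. It was 1.94-fold higher in the knockout library, with an interval of 1.76 to 2.15. EFNB2 (chromosome 13, 107142079 to 107187388), the ligand of EPHB4, pointed the other way, with 1846 knockout and 3254 wild-type fragments, or 35.5 CPM in the knockout and 53.6 CPM in the wild-type library. The EFNB2 ratio of 0.662 (interval 0.625 to 0.701) lay at the 1.5-fold limit, and it was not counted because its interval crossed that limit. The ephrin-B genes therefore had ratios on opposite sides of 1, with intervals that did not overlap.

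Over the 10 genes, 3 were counted as higher, where 10.4% of all 16894 genes tested were, and 1 as lower, where 9.17% of all were. The median log2 ratio of the 10 was 0.20, beside 0.02 over all genes tested. At a minimum of 50 reads, which leaves out EPHB3, the median of the other 9 was 0.08. All 10 passed the minimum of 10 reads, EPHB3 only through the knockout library. With the whole interval beyond 2-fold under TMM, EPHB1 was the 1 gene counted as higher and EFNA1 the 1 gene counted as lower. Over all genes tested, 5.75% were higher and 3.37% lower by that stricter rule. The count of lower genes is near the share among all genes, and the count of higher genes rests on 3 genes. The 10 genes were chosen with earlier results of these data known, so setting them beside all genes is description and not a test.

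**Figure D2:**
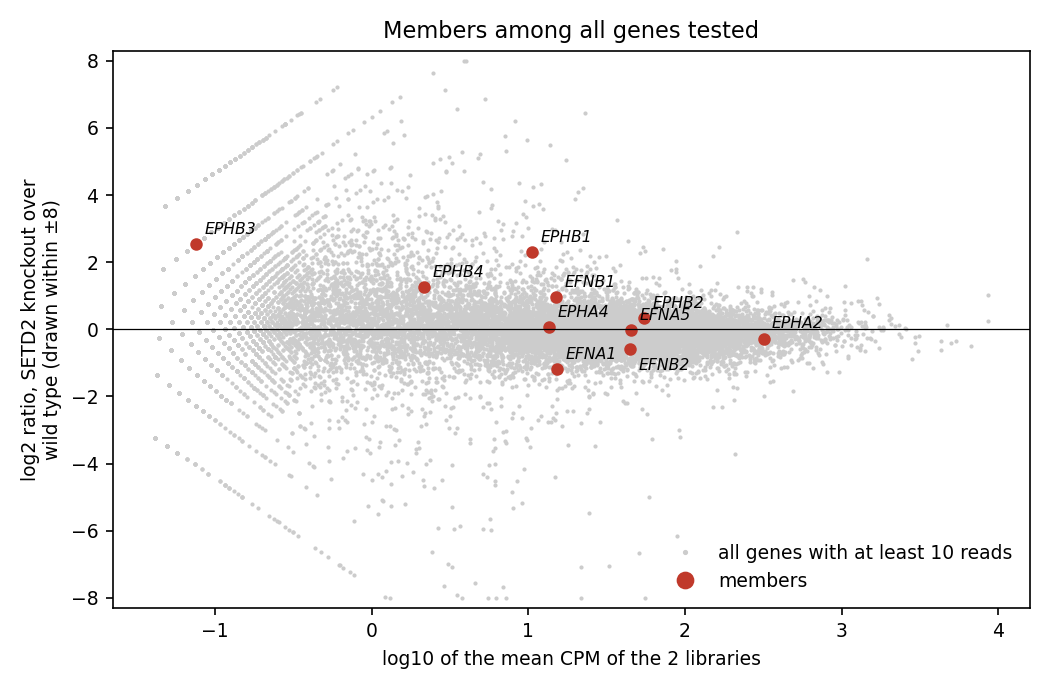
Each point is a gene with at least 10 reads, at the log10 of its mean CPM over the 2 libraries (x axis) and its log2 ratio of knockout over wild type (y axis, drawn within ±8); red points are the 10 genes. Of all genes tested, 95.1% lie below EPHB1 at 2.30 and 5.55% below EFNA1 at -1.19, while EPHB3 at 2.54 lies among genes of very few fragments.

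The makeup of the receptor and ligand pools differed between the libraries. EphB receptors made up 18.5% of the summed receptor RPKM in the knockout library (counting interval 18.0% to 19.0%) and 10.9% in the wild-type library (10.6% to 11.3%). EPHA2 made up 79.1% in the knockout and 87.0% in the wild-type library. Within the EphB receptors, EPHB1 took 22.2% of the summed RPKM in the knockout and 6.96% in the wild-type library. EPHB2 remained the main EphB receptor, with 73.5% in the knockout and 90.4% in the wild-type library.

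Of the summed RPKM of the 4 ephrins, EFNA1 took 20.9% in the knockout library and 36.2% in the wild-type library. EFNB1 took 21.0% in the knockout and 8.22% in the wild-type library. The 4 leave out EFNA4, at 4.55 RPKM in the knockout and 4.94 RPKM in the wild-type library. Over all 8 ephrins, EFNA1 took 16.7% in the knockout and 30.0% in the wild-type library. The share of EFNB1 over all 8 was 16.8% in the knockout and 6.81% in the wild-type library. The order of the 4 ligands differed between the libraries. In the knockout library EFNA5 (6.29 RPKM) and EFNB2 (6.05 RPKM) came first with overlapping counting intervals, followed by EFNB1 (4.47 RPKM) and EFNA1 (4.44 RPKM), whose intervals also overlapped. In the wild-type library EFNA1 came first at 9.60 RPKM, followed by EFNB2 at 8.65, EFNA5 at 6.07 and EFNB1 at 2.18, each with an interval apart from the next. The summed RPKM of the 4 ephrins was 21.2 in the knockout and 26.5 in the wild-type library. Ephrin-A genes made up 50.5% of it in the knockout and 59.1% in the wild-type library.

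**Figure D3:**
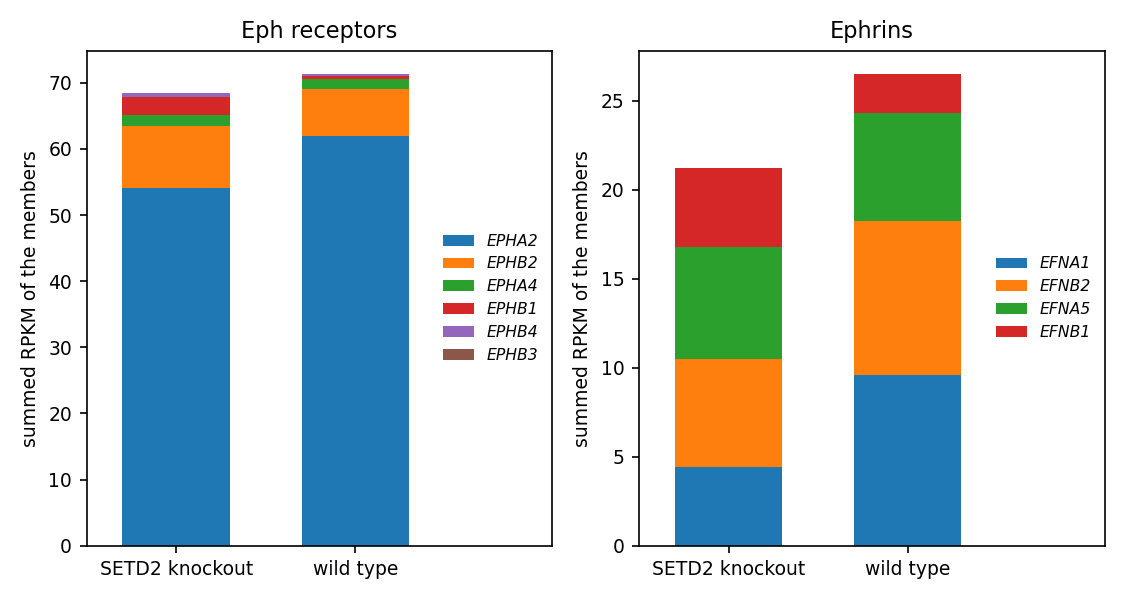
Summed RPKM of the 6 receptors (left) and the 4 ephrins (right) in the SETD2 knockout library and the wild-type library, 1 library per bar, with 1 colour per gene. EPHA2 fills 79.1% of the knockout and 87.0% of the wild-type receptor bar, and EFNA1 fills 20.9% of the knockout and 36.2% of the wild-type ephrin bar.

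The rest of the family was scarce apart from EFNA4. Of 12 further Eph and ephrin genes, 10 reached 10 reads, of which 2 were higher and 0 lower. Of all genes tested, 10.4% were higher and 9.17% lower. EPHA3, a receptor at 0 in the wild-type library, had 18 knockout fragments, at least 6.998-fold higher if 3 fragments are taken as the wild-type floor (its exact interval starts at 5.13). It passed the minimum of 10 reads only through the knockout library, so its direction was fixed by that rule. EPHB6, a receptor whose kinase domain is inactive, had 53 knockout and 23 wild-type fragments and was 2.69-fold higher (interval 1.62 to 4.59). EFNA4, whose row overlaps the end of LOC100505666, had 398 knockout and 532 wild-type fragments (ratio 0.873, interval 0.764 to 0.995). EFNA3 had 91 knockout and 76 wild-type fragments (ratio 1.40, interval 1.02 to 1.92), and neither was counted. EPHA6, a receptor of ephrin-A ligands, had 76 knockout and 75 wild-type fragments. The other 5 tested genes had at most 18 knockout and 34 wild-type fragments each, the values of EPHA5. EPHA1 had 7 knockout and 17 wild-type fragments, EFNB3 had 2 knockout and 11 wild-type fragments, EPHA10 had 6 knockout and 2 wild-type fragments, and EFNA2 had 2 knockout and 5 wild-type fragments. None of these was counted. EPHA7 and EPHA8 did not reach 10 reads.

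Over the whole family, 4 of 12 Eph receptors tested were higher and 0 lower, and 1 of 8 ephrins was higher and 1 lower. Beside them, 10.4% of all genes tested were higher and 9.17% lower, so the ephrin counts lie near those shares. The receptor count rests on 4 genes, of which EPHA3 passed the minimum of 10 reads only through the knockout library. The EphB receptors accounted for 3 of the 4 higher receptors, out of 5 EphB genes tested. EFNA4, EFNA3 and EFNA1 lie next to each other on chromosome 1, between 155036213 and 155107386, yet of these EFNA1 was the 1 gene counted as lower. The interval of its ratio did not overlap with those of EFNA4 and EFNA3.

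**Figure D4:**
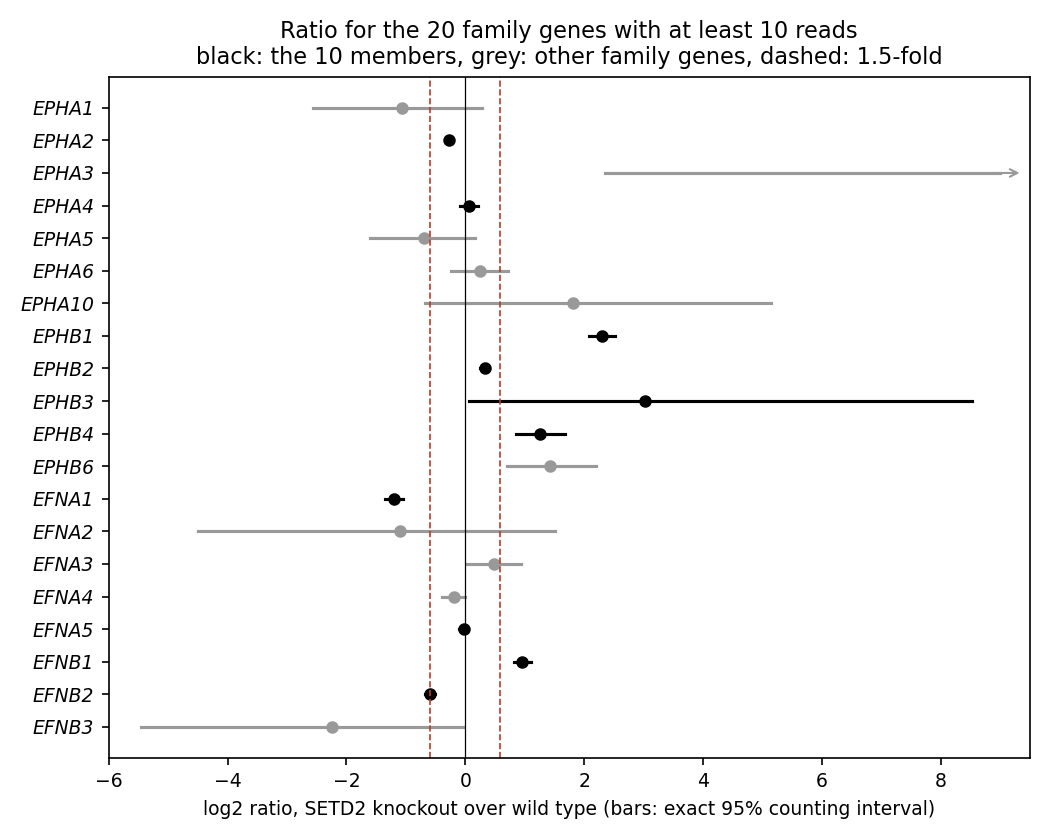
Log2 ratio of knockout over wild type, without added counts, for the 20 family genes with at least 10 reads; bars are exact 95% counting intervals, black marks the 10 genes, grey the others, dashed lines 1.5-fold, and the arrow an interval without an upper end. EPHB1, EPHB4 and EFNB1 lie wholly right of the upper line and EFNA1 wholly left of the lower one.

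EPHB1, EPHB4 and EFNB1 stood above the genes around them, and EFNA1 stood below. Each log2 ratio was set beside the median of the 50 nearest expressed genes of its chromosome. EPHB1 stood at 2.30 beside a neighbourhood median of 0.01, and 1 of its 50 neighbours had a higher ratio. EPHB4 stood at 1.25 in a region of chromosome 7 with a median log2 ratio of -0.63, so that it was 1.89 above its neighbours. EFNB1 stood at 0.96 beside a median of -0.01. EFNA1 lies in a region of chromosome 1 that also had a median below 0, at -0.51 over 2.05 Mb. Its own value of -1.19 was 0.68 below that median, and 46 of the 50 neighbours had a higher ratio. EFNB2 stood at -0.60 beside a median of 0.18, with 47 of 50 neighbours at a higher ratio. Copy number was not measured here, and its part in these ratios was not tested.

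**Figure D5:**
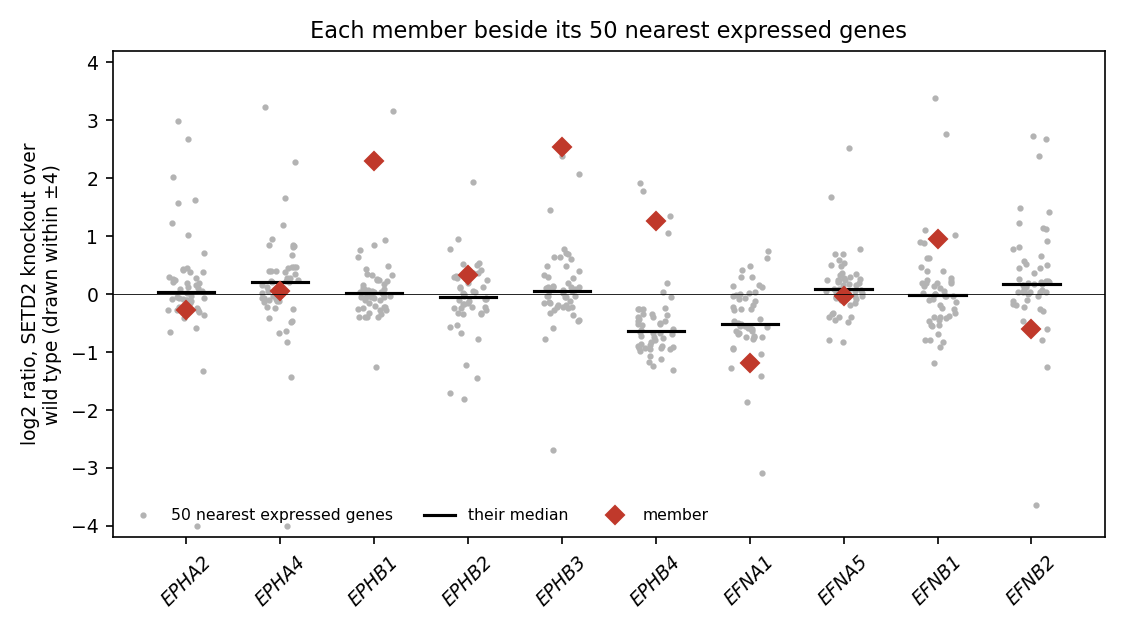
Log2 ratio of knockout over wild type for each of the 10 genes (red diamonds) and its 50 nearest expressed genes (grey points, drawn within ±4), with their median as a black line. EPHB4 and EFNA1 both lie in neighbourhoods with medians below 0 (-0.63 and -0.51), EPHB4 far above its median and EFNA1 below it.

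Set among all 58 human receptor tyrosine kinases, EPHA2 ranked 3 by RPKM in both libraries. In the knockout library AXL (81.9 RPKM) and MET (72.9 RPKM) stood above it, and FGFR1 and EGFR followed. In the wild-type library MET (90.6 RPKM) and AXL (72.3 RPKM) stood above it, and EGFR and RYK followed. EPHB2 ranked 9 in the knockout and 10 in the wild-type library. EPHB1 ranked 15 in the knockout and 21 in the wild-type library, and EPHB4 ranked 22 in the knockout and 27 in the wild-type library. Of the 42 other receptor tyrosine kinases with at least 10 reads, 3 were higher and 5 lower, beside 10.4% higher and 9.17% lower of all genes tested.

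Of 70 genes in 6 lists that act downstream of Eph receptors or ephrins, or on them, 68 were tested. Of these, 5 were higher and 5 lower, with a median log2 ratio of -0.06. These counts lie near the 10.4% and 9.17% of all genes tested that were higher and lower. Of 23 tested adaptors and exchange factors of forward signalling, 1 was higher and 2 were lower. TIAM1, a Rac exchange factor, had 250 knockout and 9 wild-type fragments, 32.4-fold higher with an interval of 16.8 to 71.7. ARHGEF16, an exchange factor of the ephexin family, had 179 knockout and 1259 wild-type fragments, 6.03-fold lower (interval 5.15-fold to 7.09-fold). GRB7, an adaptor protein, was 4.45-fold lower (3.24-fold to 6.25-fold).

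Of all genes tested, 10.4% were higher and 9.17% lower, and the counts of the single lists stand beside these shares. Of 7 cytoplasmic tyrosine kinases, SRC was the 1 higher gene, at a ratio of 1.66 (interval 1.60 to 1.72), and 0 were lower. Among 10 proteases that shed or cut Eph receptors and ephrins, 0 were higher and 0 lower, with the membrane metalloprotease MMP14 at a ratio of 0.956 and APH1A, a gamma-secretase subunit, at 0.721.

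Of 10 phosphatases and turnover genes, 2 were lower and 0 higher, beside 9.17% lower and 10.4% higher of all genes tested. PTPN11, the phosphatase SHP2, had a ratio of 0.569 (interval 0.554 to 0.583). PTPRO, a receptor phosphatase that acts on Eph receptors, had 0 knockout and 15 wild-type fragments, at least 4.29-fold lower against a floor of 3 knockout fragments (exact interval from 3.08-fold). It passed the read minimum only through the wild-type library. Among 9 partners of ephrin-B reverse signalling, 3 were higher and 1 lower, beside the same 10.4% and 9.17% of all genes tested. The count of higher partners rests on 3 genes of a short list and was not tested. GRIP1, a PDZ protein that binds the ephrin-B tail, had 201 knockout and 45 wild-type fragments, 5.21-fold higher (interval 3.75 to 7.37). RGS3, a regulator of G protein signalling that binds the same tail, had a ratio of 1.92 (1.84 to 1.995). PICK1, another PDZ partner of ephrin-B proteins, had 3 knockout and 138 wild-type fragments, 39.4-fold lower (interval 13.2-fold to 194-fold). It too passed the read minimum only through the wild-type library.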

How the data were processed

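For each library, the authors deposited raw counts of reads per gene beside RPKM values, per the file headers. TopHat2 2.0.6, Bowtie and HTSeq with hg19 are named by the submitters' processing notes. Settings, annotation and strand handling: not given in the sources used here. Each table held 23398 rows, of which 23375 were used after the Y rows of 23 genes also listed on X were dropped. Every deposited count was even, so counts were halved to fragments. RPKM as deposited equals the count over the length column (CodingLength) and 1 total per table, of which genes made up 72.8% in the knockout and 72.7% in the wild-type table.

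Libraries were scaled by TMM in edgeR 4.0.16 (R 4.3.3) on 16894 genes with a sum of at least 10 reads. Intervals of ratios are exact conditional (Clopper-Pearson) 95% intervals, and those of levels exact Poisson intervals; intervals of shares use the normal approximation to Poisson counts. All cover counting error only. Log2 ratios used 0.5 added fragments. Neighbours were genes with at least 100 reads. Of rows that overlap the 10 genes, MIR4253 had 1 wild-type fragment and MIR4684 had 0 in both libraries; both lie in EPHB2. Alternatives were total count, upper quartile and DESeq2 1.42.0 scaling, undivided counts, other read minimums, a 99% interval, 2-fold and interval-free rules, 2 added fragments, RPKM ratios and ratios to neighbours. Members and lists were chosen with earlier results of these data known. Named were all 10 genes, family genes with at least 10 reads, the 5 most abundant receptor tyrosine kinases, and up to 2 higher and 2 lower genes of each pathway list, or its 2 most abundant where none was counted. Of the 6 pathway lists, 1 enters the totals and is not reported here. With 2 libraries, no gene could be named for a like pattern. Promoter windows came from RefSeq (GRCh38.p14).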

Additional observations from a re-analysis of the deposited data

How the results depend on the processing

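EPHB1, EPHB4 and EFNB1 stayed the 3 higher genes and EFNA1 the 1 lower gene under total count, upper quartile and DESeq2 scaling, with minimums of 1 and 50 reads and with a 99% interval. Undivided counts added EPHB3, for 4 higher genes. The 2-fold rule left 1 higher gene of the 10, 971 higher and 569 lower genes of all, and 2 higher genes of the pathway lists, as a stricter limit must. Without an interval, EPHB3 and EFNB2 passed 1.5-fold, giving 4 higher and 2 lower genes, beside 3538 higher and 2830 lower of all. Over all 8 ephrins in place of 4, the ephrin-A share was 60.4% in the knockout and 66.0% in the wild-type library, since EFNA4 is added. No counted gene changed sign under any alternative run. Total count scaling moved the log2 ratio of EPHA2 from -0.276 to -0.199 and that of EPHB2 from 0.328 to 0.404. Both new values lay outside the counting intervals under TMM (-0.306 to -0.245 and 0.255 to 0.401), which do not cover the choice of scaling. No paired analysis was possible because each group holds 1 library, and for the same reason no library could be left out. Depth limits EPHB3 and most of the family outside the 10 genes, which rest on few fragments. Variation between cultures was not measured.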
